A study of Mus musculus with 6 samples.

Results

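The exons and introns described here are those that a Strep-tag pull-down of Gtsf1 held back from P19 cells that had not been crosslinked. They were chosen by level and by ratio: a mean of at least 1 RPM (reads per 1000000 mapped reads) over the 4 crosslinked libraries, and a log2 ratio of pull-down to input, log2(RPM + 1) on each side, of at least 1 in the uncrosslinked pair. Features of 1 class with the same read counts in all 6 libraries were counted as 1. This gave 634 of the 21288 distinct exons and introns above that level (2.98%), made up of 301 exons and 333 introns of 504 genes. The ratio in the uncrosslinked pair chose these features, so it is given as a description and is not tested. The values free of that choice are those of the 2 crosslinked pairs, with 1 reservation: the level filter used the crosslinked pull-downs as well as the inputs. A feature with a low input could pass it only through its pull-downs, so the main counts of calls and of ratios in the crosslinked pairs are also given for the 303 retained features whose crosslinked inputs alone averaged at least 1 RPM. Calls and p-values of the other 331 are a description that the filter favoured, and are no support for a difference.

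P19 is a mouse embryonal carcinoma cell line. It was transfected with mouse Gtsf1 (also called Asterix) carrying a TEV-Strep tag at its C-terminus, expressed from the EF-1alpha promoter of a pEF vector, and was taken for crosslinking 48 hours later. The 6 libraries were an uncrosslinked input and an uncrosslinked pull-down (n = 1 each), 2 inputs from cells crosslinked with ultraviolet light at 254 nm, and 2 pull-downs from such cells on MagStrep XT beads. The same transfection is described for all samples, and no pull-down from untransfected cells was analysed here, so RNA held by the beads and RNA held by the tagged protein without a crosslink cannot be told apart. The labels do not say whether the numbered samples came from separate cultures, so p-values measure the spread between these samples, which may be technical.

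Enhanced crosslinking and immunoprecipitation (eCLIP) maps the RNA that ultraviolet light has joined to a protein: the lysate is treated with RNase, the protein is captured on beads, and the RNA fragments that come with it are sequenced beside the input from which they were captured. Gtsf1 is a small CHHC zinc-finger protein of the piRNA pathway, known for binding tRNA and for its role in silencing transposons in the germ line. A pull-down without crosslinking serves as the background of such an experiment, because it keeps only RNA that stays on the beads without a covalent bond. Exons and introns in such data are fragments of pre-mRNA and mRNA, and an intron may also hold copies of repeats or small RNAs that the annotation class does not name.

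The libraries held 13168593 to 18418166 mapped reads, so that 1 read was worth 0.0543 to 0.0759 RPM. Of the retained features, 247 had 3 reads or fewer in the uncrosslinked input, and their median was 5 reads there against 55.1 in the uncrosslinked pull-down. Intervals and floors drawn from such counts cover counting error only. Over the 28 fixed markers of pluripotent and embryonal carcinoma cells, 14 reached 1 RPM in both crosslinked inputs and the list summed to 139 to 193 RPM in the 3 inputs. Of 22 markers of differentiated cells, 4 did, with a sum of 26.2 to 35.3 RPM, and Sox17 and Afp were at 0 in every input. The pre-mRNA of Gtsf1 itself stood at 46.9 and 46.3 RPM in the crosslinked inputs and at 102 and 210.3 RPM in the crosslinked pull-downs (edgeR log2 ratio 1.84 ± 0.36 SE, adjusted p = 0.0246), with 49.2 and 40.6 RPM in the uncrosslinked input and pull-down.

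Exon 1 was the most common kind of retained exon, so a RefSeq start of a few such genes is shown here before the values. The 5 below are examples and follow no ranking. In the crosslinked pull-downs, an exon 1 averaged 158 RPM for Adgrb2, 64.35 for Stxbp3, 59.9 for Kitl, 48.1 for Mat2a and 19.5 for Itsn1. Rspo1, at 68.1 RPM, is among those not shown. Each line gives 30 bases from the 1 start listed for the gene in the RefSeq promoter table used, 5′ to 3′ on the strand of the gene, on GRCm38.p6 (the assembly known as mm10). That start is the outer boundary of the RefSeq gene for Stxbp3 and Mat2a, and lies 206 bases inside it for Kitl, 97 for Adgrb2 and 61 for Itsn1, so other transcripts of these genes begin further upstream. Capitals mark runs of 3 or more G. The deposited files give no coordinates for their exons, and an exon 1 numbered in them may start elsewhere than the start shown.
Stxbp3 (chr3:108840473-108840502, minus strand): gaggcggtggctgtagctccacggctGGGG
Kitl (chr10:100015821-100015850, plus strand): gccGGGGcttcatttgctgtctgtcaccgg
Adgrb2 (chr4:129984870-129984899, plus strand): actcggcccggcgcgcgctgcGGGcagcgg
Itsn1 (chr16:91729371-91729400, plus strand): aggaGGGcgagaggagtggagcggcgcGGG
Mat2a (chr6:72439527-72439556, minus strand): gttcgctccgagtctccagcctgccgagag
The 5 differ in length and number of G runs, and Mat2a has none in this window. They hold such a run more often than retained genes do: of the 77 genes with a retained exon 1 and 1 start in that table (44 at the boundary of the gene and 33 inside it), 33 (42.86%) had GGG in these 30 bases, against 48.48% of genes with a tested but no retained exon 1 and 39.97% of all genes of the table. Over the 50 bases from each listed start, the median GC content was 65% for genes with a retained exon 1, 66% for genes with a tested but no retained exon 1 and 56% for all genes of the RefSeq table. Of the 155 genes with a retained exon 1, 154 had a RefSeq symbol and 119 of these a start in that table; 991 genes of the second set had one. The letters GGG stood on the transcribed strand of 70.83% of the windows of genes with a retained exon 1, 66.28% of those of the second set and 57.58% of all windows of the same length. On either strand the shares were 90.1%, 85.44% and 78.27%. These shares describe the windows and were not tested.

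Most retained exons and introns were higher in the crosslinked pull-downs than in the crosslinked inputs too. In edgeR's quasi-likelihood test, fitted on all 39872 features of every class above the level filter and adjusted over all of them, 493 of the 634 were called higher (adjusted p under 0.05), 0 were called lower and 141 were not called. Among all 21288 distinct exons and introns, 742 (3.49%) were called higher and 501 (2.35%) lower, and among all tested features of every class 6.44% and 3.50%. With p-values left unadjusted, 565 retained features passed 0.05 as higher and 3 as lower, of 1163 and 2914 among the 21288, and DESeq2 and limma also called 0 lower. The count of lower calls was 6 without crosslinked input 1 and 1 without crosslinked pull-down 1. Of the 742 exons and introns called higher in the crosslinked pair, 493 (66.44%) were ones that the uncrosslinked pull-down also held.

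The 303 retained features with crosslinked inputs of at least 1 RPM gave a lower share. Of these, 179 (59.08%) were called higher and 0 lower, where 290 of 20472 exons and introns with such inputs (1.42%) were called higher and 2.45% lower. Unadjusted, 236 passed 0.05 as higher and 3 as lower, of 597 and 2914 among the 20472. Those 179 made up 61.72% of the 290. Of the other 331 retained features, whose inputs averaged under 1 RPM, 314 were called higher, a count that the level filter favoured: of all 816 tested exons and introns with such inputs 452 (55.4%) were called higher. Without crosslinked input 2, the 303 gave 234 calls in place of 179, and without any of the other crosslinked libraries 178 to 204.

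The ratio was above 0 in both crosslinked pairs for most of the features, and stayed at 1 or above in both for 375 of them. The median log2 ratio was 1.75 in the uncrosslinked pair, 1.56 in crosslinked pair 1 and 1.31 in crosslinked pair 2, where all 21288 exons and introns had medians of -0.44, -0.20 and -0.19. That is 375 of 634 (59.15%) against 445 of 21288 (2.09%), in 1 pair only by 157 and in neither by 102. Pair 1 alone accounted for 120 of the 157. Both pairs were above 0 for 582 of the 634 (10.64% of all tested exons and introns) and both below 0 for 9, where 14562 of the 21288 were. In 570 both crosslinked pull-downs lay above both crosslinked inputs (8.16% of all tested ones), and in 6 both lay below, as in 12055 of the 21288. Of the 445 exons and introns with a ratio of at least 1 in both crosslinked pairs, 375 (84.27%) were also held without crosslinking.

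The 303 features with inputs of at least 1 RPM had medians of 1.81, 1.34 and 0.94 in the uncrosslinked pair and crosslinked pairs 1 and 2. Both crosslinked pairs reached 1 in 123 of them (40.59%), against 135 of 20472 (0.659%). Both were above 0 in 251, where 1531 of the 20472 (7.48%) were. In 239 both pull-downs lay above both inputs (5.18% of tested features with such inputs). Placing the level filter on the 2 uncrosslinked libraries instead gave 620 exons and introns of 10973, of which 566 were among the 634. Both crosslinked pairs reached 1 in 339 of these 620 (54.68%), both were above 0 in 565, and the medians were 1.53 and 1.23. Of all 10973, 347 (3.16%) had both pairs at 1 or above, and 339 of those 347 were among the 620.

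**Figure D1:**
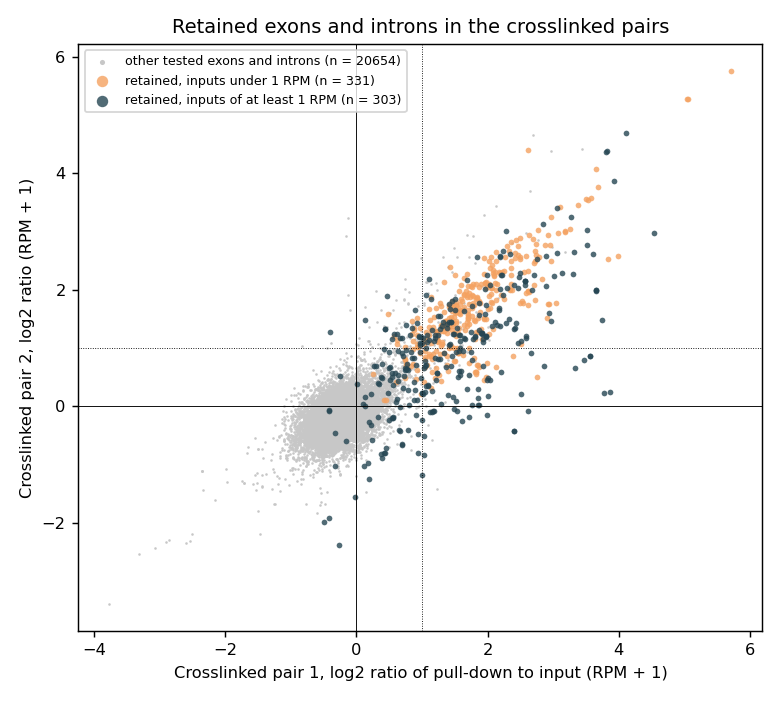
Log2 ratio of pull-down to input in crosslinked pair 1 (x axis) and crosslinked pair 2 (y axis), both on RPM + 1, for the 634 retained exons and introns and the 20654 other tested ones, with dotted lines at 1. Of the retained features, 582 lie above 0 on both axes and 375 at or above 1 on both; those with inputs under 1 RPM (331, orange), for which the level filter favoured high ratios, lie above 0 on both axes, and of the others (303, dark) 251 do.

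The share that kept a ratio of 1 varied with the size of the uncrosslinked ratio, which is given as a description with no test. Among the features with inputs of at least 1 RPM, both crosslinked pairs reached 1 in 23 of 99 with an uncrosslinked ratio from 1 to 1.5, in 20 of 73 from 1.5 to 2, in 33 of 68 from 2 to 3 and in 47 of 63 at 3 or above. In all 4 classes the crosslinked medians lay below the uncrosslinked one: 0.73 and 0.72 against 1.25 in the lowest class, and 2.61 and 1.43 against 3.62 in the highest. Over all 634 features, the mean crosslinked ratio exceeded the uncrosslinked one in 145. A feature chosen for a high ratio in 1 pair of libraries can be lower in others by that choice alone, so no loss on crosslinking is read from these values. None of the 3 pull-downs was the highest for most features: the uncrosslinked pull-down was highest for 217, crosslinked pull-down 1 for 196 and crosslinked pull-down 2 for 221.

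Features on either side of the threshold had crosslinked ratios that overlapped. Just inside it, Trim36 intron 1 had an uncrosslinked log2 ratio of 1.01 and crosslinked ratios of 0.71 and 0.32. Ptov1 exon 1 had 1.00, 0.25 and 0.56, and an intron 2 of Uhrf1bp1l 1.00, -0.03 and -1.56. Just outside it at 0.998, Gpr107 exon 18 had crosslinked ratios of 0.72 and 0.30, and Cib2 intron 1 had 2.19 and 1.39. Gm47283 exon 1, also just outside, had 0.98 and 1.16.

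The retained features took a large share of the exon and intron reads of the pull-downs. They summed to 1345 RPM in the uncrosslinked input and 11286 RPM in the uncrosslinked pull-down, or 2.19% and 24.17% of the RPM of all tested exons and introns. In the crosslinked inputs the share was 3.06% and 4.53%, and in the crosslinked pull-downs 14.39% and 12.64%. Without the 5 largest features the 6 shares were 1.62%, 18.83%, 2.23%, 3.69%, 8.78% and 8.41%. The 303 features with crosslinked inputs of at least 1 RPM took 2.95% and 4.39% of such reads in the crosslinked inputs and 12.96% and 11.11% in the crosslinked pull-downs, and without their 5 largest 2.12%, 3.55%, 7.19% and 6.74%. The difference in the uncrosslinked pair was set by the choice of features.

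The 10 features with the highest uncrosslinked ratio came from 9 genes. Srpr encodes a subunit of the receptor for the signal recognition particle, which docks ribosomes to the endoplasmic reticulum. Its exon 10 stood at 0.565 RPM in the uncrosslinked input and 81.9 RPM in the uncrosslinked pull-down, at 0.63 and 0.606 RPM in the crosslinked inputs, and at 84.7 and 86.4 RPM in the crosslinked pull-downs. All 3 pull-downs were within a few RPM of each other and far above all 3 inputs. The edgeR log2 ratio of the crosslinked libraries was 7.20 ± 0.23 (SE, n = 2 against 2, adjusted p = 0.000348), for an exon whose inputs averaged under 1 RPM and which passed the level filter through its pull-downs. Srpr lies on chr9:35211203-35217003 (mm10).

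Stxbp3, whose RefSeq start is printed above, encodes a Munc18-type protein of vesicle fusion. The same pattern held for that exon, at 0.701 RPM in the uncrosslinked input and 64.5 RPM in the uncrosslinked pull-down, at 0.963 and 0.7 RPM in the crosslinked inputs and at 63.9 and 64.8 RPM in the crosslinked pull-downs. Its edgeR log2 ratio was 6.34 ± 0.24 (SE, adjusted p = 0.000348), and a second annotated form of the exon, with nearly the same reads, had the same ratio. Like Srpr, it passed the filter through its pull-downs. An intron 49 of Dock1, which encodes an activator of the GTPase Rac, stood at 1.82 and 104 RPM in the uncrosslinked pair, at 4.14 and 3.19 RPM in the crosslinked inputs and at 87.5 and 107.9 RPM in the crosslinked pull-downs (edgeR log2 ratio 4.83 ± 0.25 SE, adjusted p = 0.000348). In these 3 genes the pull-downs reached like levels with and without crosslinking.

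Other leading features were higher in the uncrosslinked pull-down than in the crosslinked ones. Csmd1, a gene of 1642848 bases on chr8:15892538-17535385, encodes a large complement-control protein of the membrane, and a feature listed as its exon 4 had the highest uncrosslinked log2 ratio, 6.17. It was at 0.919 and 137 RPM in the uncrosslinked pair, at 2.09 and 5 RPM in the crosslinked inputs and at 40.3 and 15.8 RPM in the crosslinked pull-downs (edgeR log2 ratio 3.06 ± 0.55 SE, adjusted p = 0.0192). An intron 3 of Fstl4, a follistatin-like gene, was at 4.18 and 304 RPM without crosslinking, at 6.01 and 10.6 RPM in the crosslinked inputs and at 53.9 and 31 RPM in the crosslinked pull-downs (edgeR log2 ratio 2.43 ± 0.37 SE, adjusted p = 0.00952). For both, the crosslinked pull-downs did not overlap the crosslinked inputs and lay below the single uncrosslinked pull-down.

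Chrm3 encodes a muscarinic acetylcholine receptor. Its intron 3 was at 3.3 and 241 RPM in the uncrosslinked pair, at 5.57 and 10.5 RPM in the crosslinked inputs and at 151 and 89.7 RPM in the crosslinked pull-downs (edgeR log2 ratio 3.99 ± 0.41 SE, adjusted p = 0.00163). Intron 5 of Gabra5, which encodes a subunit of the GABA-A receptor, was at 0.047 and 37.7 RPM without crosslinking, at 0.282 and 0.207 RPM in the crosslinked inputs and at 6.87 and 24.6 RPM in the crosslinked pull-downs (edgeR log2 ratio 6.03 ± 0.85 SE, adjusted p = 0.00671). The Gabra5 pull-downs differed more from each other than those of most leading features, and all 3 lay above the inputs, which were under 1 RPM.

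Pnck exon 1 was the exception among the 10 in the test. Pnck encodes a calcium/calmodulin-dependent kinase. The exon stood at 24.3 and 918 RPM in the uncrosslinked pair, at 42.5 and 134 RPM in the crosslinked inputs and at 333 and 411 RPM in the crosslinked pull-downs. The groups did not overlap, but the crosslinked inputs differed from each other and the edgeR log2 ratio of 2.16 ± 0.52 (SE) missed the threshold (adjusted p = 0.0537). The log2 ratio was 3.24 without crosslinked input 2 (edgeR adjusted p = 1.8e-05) and 1.55 without crosslinked input 1 (edgeR adjusted p = 0.0056), and it passed with DESeq2 (adjusted p = 0.00014).

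**Figure D2:**
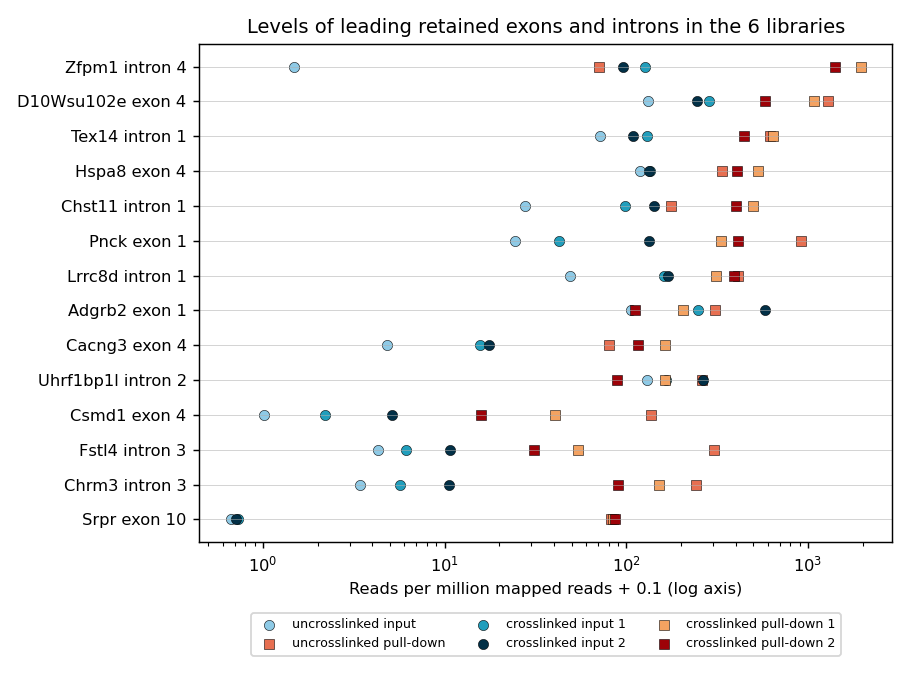
RPM plus 0.1, on a log axis, in each of the 6 libraries for 14 retained features (circles are inputs, squares pull-downs, 1 library a point): the 10 genes with the highest mean crosslinked pull-down and 4 more with the highest uncrosslinked ratios. The pull-downs lie to the right of the inputs of the same treatment except in the crosslinked libraries of Adgrb2 exon 1 and Uhrf1bp1l intron 2.

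By level in the crosslinked pull-downs, intron 4 of Zfpm1 came first. Zfpm1 encodes FOG1, a cofactor of GATA transcription factors. The intron was at 1.39 RPM in the uncrosslinked input, 70.8 RPM in the uncrosslinked pull-down, 128 and 96.1 RPM in the crosslinked inputs and 1960.1 and 1418 RPM in the crosslinked pull-downs. It was thus higher in every crosslinked library than in the uncrosslinked library of the same kind, and higher in each pull-down than in its input (edgeR log2 ratio 4.01 ± 0.27 SE, adjusted p = 0.000389). The files do not say which part of the intron the reads cover, and what lies there was not tested.

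Exon 4 of D10Wsu102e was at 131 and 1299 RPM in the uncrosslinked pair, at 285 and 245 RPM in the crosslinked inputs and at 1079.6 and 583 RPM in the crosslinked pull-downs (edgeR log2 ratio 1.74 ± 0.31 SE, adjusted p = 0.0188). Intron 1 of Tex14, which encodes a protein of germ-cell intercellular bridges, was at 71.3 and 616 RPM without crosslinking, at 129 and 109 RPM in the crosslinked inputs and at 641 and 447 RPM in the crosslinked pull-downs (edgeR log2 ratio 2.28 ± 0.24 SE, adjusted p = 0.00195). Both features had little difference between the 2 crosslinked inputs, and their pull-downs stood above all inputs.

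Hspa8 encodes the constitutive Hsc70 chaperone and hosts box C/D snoRNAs. A form of its exon 4 was at 119 and 336 RPM in the uncrosslinked pair, at 136 and 134 RPM in the crosslinked inputs and at 532 and 405 RPM in the crosslinked pull-downs (edgeR log2 ratio 1.89 ± 0.21 SE, adjusted p = 0.00233). Intron 1 of Chst11, a chondroitin sulfotransferase gene, was at 27.7 and 176 RPM without crosslinking, at 98.3 and 142 RPM in the crosslinked inputs and at 496 and 404 RPM in the crosslinked pull-downs (edgeR log2 ratio 1.99 ± 0.26 SE, adjusted p = 0.00456). In both genes the level of the crosslinked pull-downs was above that of the uncrosslinked one, in contrast to Csmd1 and Fstl4. The crosslinked inputs of Chst11 were also above its uncrosslinked input. Its log2 ratio was 2.62 without crosslinking and 2.32 and 1.50 with it, so it was lower with crosslinking, as for Csmd1 and Fstl4. That of Hspa8 was 1.49 without crosslinking and 1.96 and 1.59 with it.

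Exon 4 of Cacng3, which encodes an AMPA-receptor auxiliary subunit, was at 4.74 and 80.6 RPM in the uncrosslinked pair, at 15.5 and 17.5 RPM in the crosslinked inputs and at 163 and 116 RPM in the crosslinked pull-downs (edgeR log2 ratio 3.17 ± 0.24 SE, adjusted p = 0.000515). An intron 1 of Lrrc8d, a volume-regulated anion channel gene, was at 49.2 and 411 RPM without crosslinking, at 162 and 169 RPM in the crosslinked inputs and at 314 and 390 RPM in the crosslinked pull-downs (edgeR log2 ratio 1.18 ± 0.20 SE, adjusted p = 0.016). Cacng3 kept most of its ratio in both crosslinked pairs, and Lrrc8d kept less, with pair ratios of 0.95 and 1.20 against 3.04.

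A group of 96 features, 45 exons and 51 introns, had 3 reads or fewer in each of the 3 inputs. Their levels in the 3 pull-downs were close to each other: in 78 of the 96 the highest pull-down was within 1.5 times the lowest, with a median of 1.24 times, while among the 538 other retained features this held for 216 and the median was 1.65 times. All 96 were called higher in the crosslinked pair, which the filter had largely fixed, since their level came from the pull-downs. With such inputs, the choice of features also set a lower limit on their pull-downs. How close the pull-downs lay is therefore a description and was not tested against the other features. Of these features 22 had no read in either crosslinked input and 18 had none in any input.

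Intron 44 of Igf2r, the receptor for insulin-like growth factor 2 and mannose 6-phosphate, led these 22. It had no read in any input and 10.7, 11.9 and 12.7 RPM in the uncrosslinked and the 2 crosslinked pull-downs. The crosslinked pull-downs averaged 12.3 ± 0.56 RPM (SD, n = 2), at least 73.3-fold higher than a floor of 3 reads per input library. Exon 1 of Vmn1r205, a vomeronasal receptor gene, followed with 9.34, 10.6 and 10.6 RPM and no read in any input, at least 63.4-fold higher than that floor.

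Intron 8 of Abca13, a transporter gene of the ABC family, had no read in any input and reached 8.93, 8.55 and 7.22 RPM after capture, at least 47.1-fold above the same floor. Exon 3 of Nmrk2, a nicotinamide riboside kinase gene, had 5.37, 6.54 and 6.67 RPM, with 1 read in the uncrosslinked input (at least 39.5-fold in the crosslinked libraries). Bmpr1b exon 1, of a BMP receptor gene, had 13.4 RPM in the uncrosslinked pull-down and 5.53 and 3.23 RPM in the crosslinked ones, and was the 1 of these 5 whose pull-downs were not alike.

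Not every retained feature kept its direction. Adgrb2, an adhesion G-protein-coupled receptor gene of the brain, had the lowest mean crosslinked ratio. Its exon 1 was at 106 and 307 RPM in the uncrosslinked pair, at 247 and 583 RPM in the crosslinked inputs and at 204 and 111 RPM in the crosslinked pull-downs. The edgeR log2 ratio was -1.31 ± 0.47 (SE, adjusted p = 0.16), and -1.81 without crosslinked input 1 (edgeR adjusted p = 0.00233), so whether it was called lower depended on that library.

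An intron 1 of 1190005I06Rik was at 1.69 and 4.77 RPM in the uncrosslinked pair, at 6.23 and 11.8 RPM in the crosslinked inputs and at 4.14 and 2.26 RPM in the crosslinked pull-downs (edgeR log2 ratio -1.40 ± 0.39 SE, adjusted p = 0.0847). Intron 1 of Cdh22, a cadherin gene, was at 14.7 and 46.2 RPM without crosslinking, at 37.1 and 93.4 RPM in the crosslinked inputs and at 29.4 and 45.5 RPM in the crosslinked pull-downs (edgeR log2 ratio -0.71 ± 0.45 SE, adjusted p = 0.414). In Adgrb2, 1190005I06Rik and Cdh22 crosslinked input 2 was the highest of the 6 libraries. Both 1190005I06Rik and Cdh22 were called lower without crosslinked input 1, Cdh22 with a log2 ratio of -1.24 (edgeR adjusted p = 0.0375), and without crosslinked input 2 that of Cdh22 was 0.12.

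Exon 1 was more common by number among retained than among all tested exons. Of the 301, 193 (64.12%) were numbered exon 1 in the files, where 1837 of all 7948 tested exons (23.11%) were. An exon 1 of 1 annotated form can be a later exon of another: 2 of the 193, of Rspo1 and Glrx2, had the same counts as a later exon. A further 11 had counts within 10% or 1 read of a retained later exon of the same or another gene, directly or through another retained form. Like counts alone do not show a shared exon: exon 1 of 4932411N23Rik on chrX and exon 2 of Fgl1 on chr8 fell in 1 such group. With exons that share all counts with a later one left out of exon 1, its share was 63.46% of retained and 23.02% of tested exons. Exon 6 or later made up 16.61% of retained and 45.41% of tested exons. The numbering followed the direction of transcription on both strands, and the share of exon 1 was 65.55% on the plus and 62.5% on the minus strand (22.84% and 22.63% of tested exons). Among exons with crosslinked inputs of at least 1 RPM, 90 of 132 retained ones (68.18%) and 1627 of 7544 tested ones (21.57%) were exon 1. Only 16 of the 193 belonged to genes with no other exon in the files. Intron 1 made up 46.55% of retained and 41.93% of tested introns, and among introns with crosslinked inputs of at least 1 RPM 93 of 171 retained ones (54.39%) and 42.03% of tested ones. Of the 155 retained introns numbered 1, 16 had the same counts as a later intron, and without such introns the shares were 41.74% and 37.81%.

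**Figure D3:**
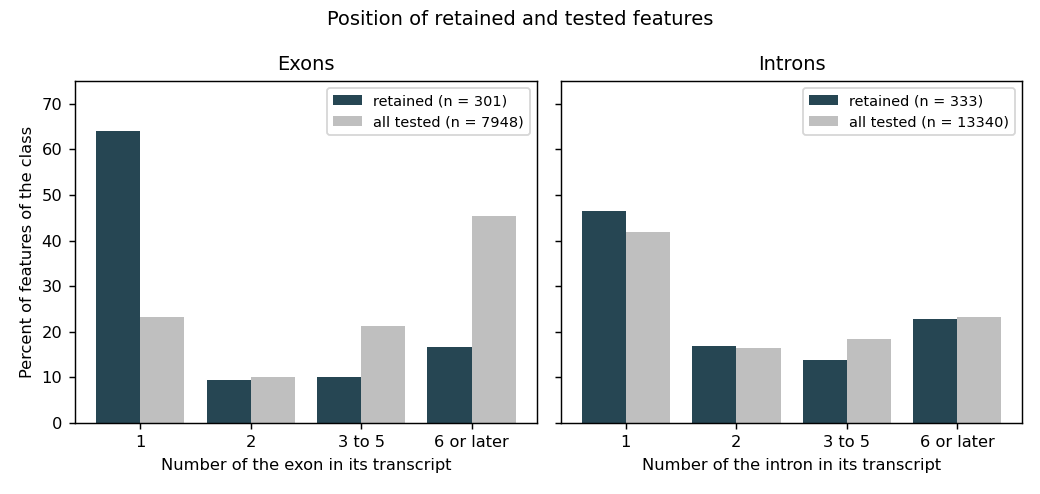
Percent of exons (left) and introns (right) by their number in the transcript, for the retained features (dark) and all tested features of the class (grey), with no error since each bar is a share of a fixed set. Exon 1 makes up 64.12% of retained and 23.11% of tested exons, and intron 1 46.55% and 41.93% of introns; with crosslinked inputs of at least 1 RPM, which the plot does not separate, intron 1 makes up 54.39% and 42.03%.

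In the crosslinked pairs, 106 of the 132 retained exons with inputs of at least 1 RPM lay above 0 in both and 2 below 0 in both, and of the 171 such introns 145 and 7. Of all 20472 tested exons and introns with such inputs, 1531 lay above 0 in both and 14562 below 0 in both. Of the retained ones, 75 exons and 104 introns were called higher in edgeR's test, against 1.50% and 1.37% of all tested exons and introns with such inputs. Of the 90 with exon number 1, 45 were called, against 4.12% of tested ones, and of the 42 later exons 30, against 0.777%. The median log2 ratios of those with exon number 1 were 1.56 in crosslinked pair 1 and 0.76 in pair 2. Later exons had 1.72 and 1.21. The difference between pairs was thus larger for exon 1, and whether exon 1 and later exons differ from each other was not tested.

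In 216 of the 504 genes the retained exon or intron stood beside others that were tested and not retained, 873 features in all. Of these 32 were called higher (3.67%) and 20 lower in edgeR's test, and their median mean crosslinked log2 ratio was -0.19. Features of genes with no retained member numbered 19781, of which 217 (1.10%) were called higher and 481 lower, with a median of -0.21. In the other 288 genes all tested exons and introns were retained. Of the 504 genes, 155 had a retained exon 1, 95 a later exon and 267 an intron, and retained exons and introns occurred together in 6. Among all 6842 tested genes, 4533 had a tested exon and 4879 a tested intron. Whether 6 differs from the overlap that such numbers give was not tested.

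**Figure D4:**
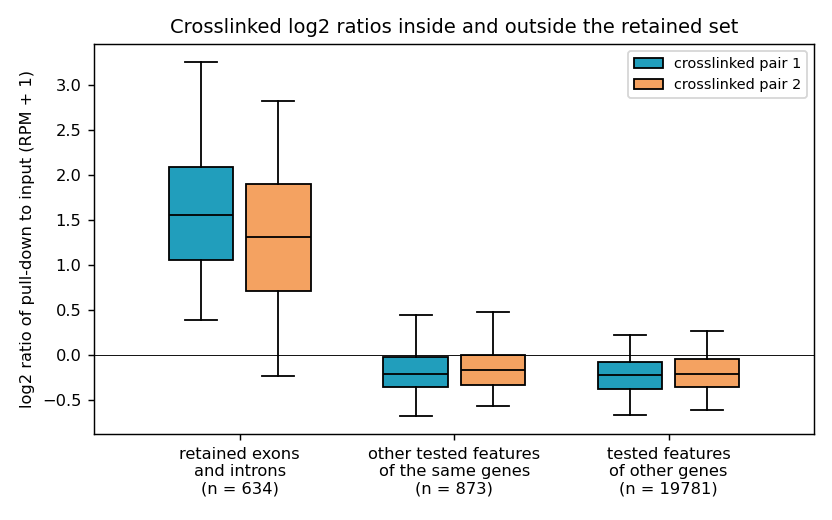
Log2 ratio of pull-down to input (RPM + 1) in crosslinked pair 1 (blue) and pair 2 (orange), as boxes from the lower to the upper quartile with the median, and whiskers from the percentile 5 to 95, over the 634 retained features, 873 other tested features of their genes and 19781 of other genes. The retained features have medians of 1.56 and 1.31 and the other features of the same genes -0.20 and -0.16; the level filter favoured high ratios where inputs were low.

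The median gene length was 95621 bases for 265 genes with a retained intron and 60204 bases for 4785 genes with a tested one. For exons the medians were 31564 and 30252 bases. These lengths include genes of retained features with crosslinked inputs under 1 RPM, which passed the level filter through their pull-downs. They are not given apart for inputs of at least 1 RPM, and the difference was not tested. Of 499 genes matched to RefSeq, 498 were protein-coding (99.8%, against 98.97% of tested genes). They lay on 21 chromosomes, and 3.01% were on X, where 3.48% of tested genes were.

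A gene held 1 retained feature in 406 cases, 2 in 74 and 3 or more in 24. Many of these can be annotated forms of 1 stretch, and features that share reads are not independent members. Grouping features whose 6 counts agreed within 10% or 1 read left 547 groups for the 634 features, and 17 groups held more than 1 gene. Such a group can join different chromosomes by like counts alone, as for Sorcs2 intron 15 (chr5), Vmn1r205 exon 1 (chr13) and Pigr intron 6 (chr1). The 547 groups are therefore no count of stretches. Fhit, a tumour-suppressor gene at a fragile site on chr14:9550092-11162061, had the most, 5 introns in 3 groups. One of its introns 2 was at 0.267 and 2.59 RPM in the uncrosslinked pair, 0.755 and 0.775 RPM in the crosslinked inputs and 3.38 and 3.6 RPM in the crosslinked pull-downs (edgeR log2 ratio 2.29 ± 0.18 SE, adjusted p = 0.00055). All 5 were called higher in edgeR's test, with inputs under 1 RPM. The 3 other tested features of Fhit had a median mean crosslinked ratio of 0.55, and the 2 others of Lsamp 0.42, above the median of -0.21 over all tested exons and introns with no retained member in the gene.

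Nrip1, which encodes a nuclear-receptor corepressor, had 3 retained introns with mean crosslinked ratios from 2.48 to 3.23, and 5 other tested features with a median of -0.36. Its intron 1 was at 1.53 and 34.6 RPM without crosslinking, at 3.36 and 2.95 RPM in the crosslinked inputs and at 35.2 and 40.9 RPM in the crosslinked pull-downs (edgeR log2 ratio 3.68 ± 0.20 SE, adjusted p = 0.000348). Itsn1, of an endocytic scaffold, had 3 forms of exon 1 in 1 group with ratios of 2.82 to 2.83, and 5 other features with a median of -0.22. Rptor, of the mTORC1 subunit Raptor, had 4 forms of exon 1 at 1.36 to 1.48 and 12 others with a median of -0.18. Evi5, a Rab GTPase-activating gene, had 4 forms of introns 1 and 2 at 2.36 to 2.48 and 5 others at -0.15. In Nrip1, Itsn1, Rptor and Evi5 the other features thus had medians below 0, unlike those of Fhit and Lsamp.

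The retained features of Csad, Nrg4, Slc5a11, Sybu, Crlf3, Fry, Large2, Nlgn1, Nhsl2, Lsamp, Dock1, Wdr43, Ap1s2, Sf1 and Fbxl6 (3 or 4 each) were all called higher in edgeR's test as well. Those of Csad, Nrg4, Slc5a11, Fry, Nhsl2 and Sf1 all had crosslinked inputs of at least 1 RPM, as did 2 of Nlgn1 and 1 each of Lsamp, Dock1 and Wdr43. The others, among them all of Sybu, Crlf3, Large2, Ap1s2 and Fbxl6, had lower inputs, where the level filter favoured the call. The calls of Large2 were lost without crosslinked pull-down 1 (edgeR adjusted p = 0.0678 for its intron 1), and those of 2 Nlgn1 introns without crosslinked input 1 (edgeR adjusted p = 0.11). A form of Nhsl2 intron 1 lost its call without either input or without crosslinked pull-down 1. Cep112 had 2 of 4 called, both with inputs under 1 RPM, and Rpl7a 1 of 3. Cfap298 had 0 of 3 called, although all 3 of its introns had a ratio of at least 1 in both pairs: one was at 0.099 and 2.48 RPM in the uncrosslinked pair, 1.09 and 3.08 RPM in the crosslinked inputs and 4.68 and 10.1 RPM in the crosslinked pull-downs (edgeR adjusted p = 0.0857). Cfap298 was called higher without crosslinked input 2 (edgeR adjusted p = 0.000724) and with DESeq2 (adjusted p = 0.00474). Hnrnpl, which encodes a splicing regulator, had 0 of 4 called, with forms of exons 1 and 2 in 1 group. One was at 1.07 and 4.72 RPM without crosslinking, at 2.08 and 4.07 RPM in the crosslinked inputs and at 3.56 and 3.46 RPM in the crosslinked pull-downs, so its groups overlapped, and without crosslinked input 2 it was called higher (edgeR adjusted p = 0.0481).

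Of the fixed gene lists, those of the piRNA pathway, biotin-dependent carboxylases, pluripotency genes, differentiated-cell markers and replication-dependent histones held 0 retained features among 7, 18, 47, 4 and 69 tested ones, numbers so low that 0 says little about most of these lists. The carboxylases carry biotin, which Strep-Tactin beads bind. Against 2.98% of all tested exons and introns, retained features made up 9% of those of snoRNA host genes (9 of 100), 5.58% of those of very long genes (14 of 251), 2.84% of those of ribosomal protein genes (10 of 352; 2.62% of those with crosslinked inputs of at least 1 RPM, against 1.48% of all such exons and introns), 1.96% of those of RNA-binding and splicing protein genes (5 of 255) and 1.68% of those of zinc-finger genes (9 of 535). With crosslinked inputs of at least 1 RPM, the share was 1.61% for RNA-binding and splicing protein genes and 0.762% for zinc-finger genes, against the same 1.48%.

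All 9 features of snoRNA hosts were called higher in edgeR's test: an intron of Rpl4, 3 of Wdr43, 2 exons of Nop56, an intron of Tnpo2, the exon of Hspa8 and an intron of Eif4a1, with a median mean crosslinked ratio of 1.24 against -0.17 for all 100. Of the 100, 10 were called higher and 8 lower. With crosslinked inputs of at least 1 RPM, which leaves out Tnpo2 and 2 introns of Wdr43, 6 of 93 tested features were retained (6.45%, against 1.48%) and all 6 were called higher, among 7 higher and 8 lower. Nop56 encodes a core protein of box C/D snoRNPs, and its exon 5 was at 16.3 and 50.7 RPM without crosslinking, at 17.8 and 18.7 RPM in the crosslinked inputs and at 50.5 and 68 RPM in the crosslinked pull-downs (edgeR log2 ratio 1.79 ± 0.21 SE, adjusted p = 0.00316). Reads of a snoRNA that lies inside a host intron cannot be told apart from those of the intron, since the files give no positions. The Tnpo2 call was lost with TMM factors (edgeR adjusted p = 0.0532).

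Very long genes with a retained feature were Csmd1, Cntnap2, Auts2, Fhit, Dmd, Lsamp, Lingo2 and Lrp1b, and 13 of the 14 features were called higher, among 30 higher and 1 lower of the 251 tested. With crosslinked inputs of at least 1 RPM, 4 of 230 tested features were retained (1.74%, against 1.48% of all such exons and introns), and 3 of the 4 were called higher, those of Csmd1, Lsamp and Lrp1b, among 11 higher and 1 lower of the 230. Auts2 intron 1 was not: it was at 5.39 and 19.9 RPM in the uncrosslinked pair, 11.8 and 21.1 RPM in the crosslinked inputs and 13 and 21.2 RPM in the crosslinked pull-downs (edgeR adjusted p = 0.837). An intron of Dmd, the dystrophin gene, had no read in the crosslinked inputs and 1.86 and 2.35 RPM in the crosslinked pull-downs, at least 12.6-fold above the floor of 3 reads.

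Of the 10 features of ribosomal protein genes 5 were called higher and 0 lower, including 2 exons of Rps13, while of all 352 tested ones 9 were called higher and 30 lower. With crosslinked inputs of at least 1 RPM, 4 of 9 retained ones were called higher, among 8 higher and 30 lower of 343. The 2 introns of Rpsa were not called. One was at 9.75 and 25.6 RPM without crosslinking, at 17.9 and 20.7 RPM in the crosslinked inputs and at 13.2 and 19.7 RPM in the crosslinked pull-downs. Among RNA-binding protein genes 10 of 255 tested features were called higher and 6 lower. Of the 5 retained ones 1 was called higher and 0 lower: the 4 with inputs of at least 1 RPM, all exons of Hnrnpl, were not called. Taf15 exon 15, with inputs under 1 RPM, was the one called (0.2 and 0.516 RPM in the crosslinked inputs, 2.43 and 3.19 RPM in the crosslinked pull-downs, edgeR log2 ratio 2.90 ± 0.34 SE, adjusted p = 0.00286). Among zinc-finger genes 8 of 9 retained features were called higher, where 9 higher and 15 lower calls fell among all 535 tested ones. With inputs of at least 1 RPM, 3 of 4 were called higher, among 4 higher and 15 lower of 525. Exon 6 of Zfp536, at 4.5 and 40.3 RPM without crosslinking, was at 7.14 and 6.1 RPM in the crosslinked inputs and at 36 and 41.3 RPM in the crosslinked pull-downs (edgeR log2 ratio 2.63 ± 0.19 SE, adjusted p = 0.000425). Zfp654 exon 1 was not called, at 3.85 and 8.34 RPM in the crosslinked inputs and 8.21 and 9.12 RPM in the crosslinked pull-downs (edgeR adjusted p = 0.383, and 0.00809 without crosslinked input 2).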

How the data were processed

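Tables of annotated features from 6 eCLIP libraries of mouse P19 cells, in 4 groups, were used. Per the submitters' processing notes, bcl2fastq 2.19, STAR 2.5.2b, bedtools 2.29.0 and the mm10 build were used. As deposited, each library file gives per feature an estimated count (not whole where reads were shared) and RPM over all reads; how reads were shared is not given in the sources used here. The authors' deposited table gives 1 enrichment ratio per feature, of unstated formula. The share of reads without an annotation, 6.99% to 14.4% per library, was left out of library sizes and tests.

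Counts were rounded and tested with edgeR 4.0.16 (R 4.3.3) quasi-likelihood, crosslinked pull-downs against crosslinked inputs, over the 39872 features that averaged 1 RPM or more in the 4 crosslinked libraries, with Benjamini-Hochberg adjustment at 0.05. A standard error is the log2 ratio divided by the root of F. Ratios of single pairs are log2(RPM + 1) differences, which understate changes of low features. Over all tested features the median log2 ratio was -0.21 as tested and about 0 with TMM factors, so all ratios are higher by that amount with TMM. The uncrosslinked pair has no replicate and no test. Scripts were tested on simulated data. DESeq2 1.42.0, limma 3.58.1 and other filters, pseudocounts and library sizes were tried as alternatives, as was leaving out each library.

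Named features were the 10 with the highest uncrosslinked ratio, the 10 highest in the crosslinked pull-downs, the 10 called higher with the largest edgeR ratio, the 5 with the lowest crosslinked ratio, those of genes with 3 or more, those of the gene lists and those next to the threshold. The members, gene lists and tests were chosen with earlier results of these data known. Exons and introns have no coordinates in the files. Gene positions come from RefSeq on GRCm38.p6, to which 499 of 504 genes were matched by symbol.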

Additional observations from a re-analysis of the deposited data

Results flagged for a closer look

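The named features given here had a log2 ratio above 0 in the uncrosslinked pair and below 0 in both crosslinked pairs. The difference was not tested, since the uncrosslinked pair is 1 library a side. Intron 1 of Cdh22 had 1.59 without crosslinking and -0.33 and -1.02 with it. Exon 1 of Adgrb2 had 1.53 against -0.27 and -2.38. Both introns of Rpsa, which share nearly all reads, had 1.30 against -0.41 and -0.07. The 2 forms of intron 1 of 1190005I06Rik had 1.10 against -0.49 and -1.98, and 1.07 against -0.42 and -1.92. Intron 2 of Uhrf1bp1l had 1.00 against -0.03 and -1.56. All tested exons and introns had medians of -0.20 and -0.19 in the crosslinked pairs. The -0.07 of Rpsa and the -0.03 of Uhrf1bp1l thus lay above the median feature of their pair.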

How the results depend on the processing

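The count of 493 features called higher stayed between 489 and 512 under TMM factors, library sizes with unannotated reads, DESeq2, limma, all 6 libraries in 1 fit, the replicate block and identical features fitted as 1, and between 499 and 562 with 1 crosslinked library left out; of the 493, between 466 and 493 kept the call in these fits. The numbers of inputs and pull-downs share only a number (r = 0.11 between their differences), and with the replicate block 489 were called; 8 named features, Csmd1 exon 4 among them (edgeR adjusted p = 0.071), lost their call. A filter of 2 RPM, which leaves 418 of the features, gave 304 calls, and 1423 of all features. Without a filter, adjustment over 942743 features left 0 calls among the 634, 0 among those with inputs of at least 1 RPM and 0 of all, with 544 of the 634 higher at an unadjusted p under 0.05. Lower calls numbered 1 with unannotated reads in library sizes and 0 to 6 with a library left out. The median crosslinked ratio of 1.40 was 1.63 with a pseudocount of 0.5 RPM, 1.20 with 2 RPM, 1.35 to 1.51 with a library left out, and 1.09 over features with inputs of at least 1 RPM, a set added after the data were seen. Features at 1 in both pairs (375 of 634, 59.15%) numbered 236 of the 456 chosen with a pseudocount of 2 RPM (51.75%), 463 of the 741 chosen with 0.5 RPM (62.48%), 566 with identical features all counted (988 features) and 123 with inputs of at least 1 RPM. Of single features, the 2 Rpsa introns turned to 0.07 and 0.068 with TMM factors and to 0.075 and 0.073 with DESeq2, and ranged from -0.47 to 0.133 and from -0.473 to 0.131 with a library left out. Auts2 then ranged from -0.267 to 0.648, Cdh22 from -1.24 to 0.122, and the Hnrnpl forms from -0.14 to 0.869, -0.146 to 0.843, -0.189 to 0.779 and -0.14 to 0.83; the cause was not tested. Few reads in the inputs limit these ratios: 247 features had 3 reads or fewer in the uncrosslinked input.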

Other observations

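The authors' deposited table of enrichment listed 256 of the 634 retained features (40.38%), while it listed 96.92% of all tested exons and introns. The listed ones had a median of 3.76 in the authors' deposited table, with 215 above 1, where tested exons and introns had a median of 1.22. The 378 features that the authors' deposited table does not list had a median uncrosslinked log2 ratio of 1.97 and a median crosslinked one of 1.38, and those it lists 1.52 and 1.42. Among those in the authors' deposited table, 94 of 256 had a mean crosslinked ratio above the uncrosslinked one, and among the others 51 of 378. Srpr exon 10 stood at 150 in the authors' deposited table and Stxbp3 exon 1 at 59.7, and Zfpm1 intron 4, Csmd1 exon 4 and Pnck exon 1 were not listed.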
